A study of Mus musculus with 14 samples.

Results

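The 10 genes whose products build elastic fibers and their microfibrils were followed through the differentiation of mouse embryonic stem cells (ESCs) into embryoid bodies (EBs): elastin (Eln), the fibrillins Fbn1 and Fbn2, the fibulins Fbln1, Fbln2, Fbln5, Efemp1 and Efemp2, and the microfibril-associated genes Mfap4 and Mfap5. They were taken by name and not by a cut on their values, but with earlier results of these data known. All 10 of 10 were present among the 16181 protein-coding genes of the deposited expression table and the 50686 genes counted. The study sequenced polyA RNA of an Osr1-GFP reporter ESC line carrying an shRNA against Dis3l2, which encodes an exonuclease that degrades uridylated RNA (shDis3l2), beside a control of the same reporter line with an shRNA against LacZ (shLacZ). Both lines were sampled as undifferentiated ESCs in LIF/2i medium (d0) and as EBs every other day up to d12, the EBs having been formed in hanging drops and grown in suspension in serum medium without LIF/2i. Each line is 1 stable line, both carry an shRNA, and each of the 14 combinations of line and day is 1 library, so that no difference on a single day has a replicate check.

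Elastic fibers give tissues such as arteries, lung and skin their recoil. Their core is elastin, secreted as the soluble precursor tropoelastin, which is laid down on a scaffold of fibrillin microfibrils and cross-linked by lysyl oxidases. Short fibulins bring tropoelastin, the cross-linking enzymes and the microfibrils together, and the fibrillin scaffold also holds the latent TGF-beta complexes through the latent TGF-beta binding proteins (LTBPs).

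The short fibulins form one family but followed different courses in these EBs, so the DNA before their start sites is shown, from RefSeq promoter entries on GRCm38.p6. Such entries were matched for 6 of the 10 genes (Fbn1, Fbln1, Fbln2, Fbln5, Efemp1 and Efemp2) and none for Eln, Fbn2, Mfap4 and Mfap5. Each run below is written 5′ to 3′ on the strand of the gene, and ends before the first base annotated for it. Capitals mark matches on either strand to a motif. The promoter boxes searched were TATAAA and CCAAT. The letters GGGCGG stand for the Sp1 site. The AP-1 site was searched as TGANTCA, with any base allowed at N. The TEAD site was searched as GGAATG. The Smad site was searched as CAGAC.
Fbln5, chr12:101819120-101819369, minus strand: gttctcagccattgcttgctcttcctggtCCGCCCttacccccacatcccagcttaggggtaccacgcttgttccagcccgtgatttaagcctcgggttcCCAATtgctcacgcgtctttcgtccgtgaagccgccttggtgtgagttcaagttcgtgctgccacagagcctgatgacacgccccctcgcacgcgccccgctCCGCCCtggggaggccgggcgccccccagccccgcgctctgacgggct
Efemp1, chr11:28852955-28853203, plus strand: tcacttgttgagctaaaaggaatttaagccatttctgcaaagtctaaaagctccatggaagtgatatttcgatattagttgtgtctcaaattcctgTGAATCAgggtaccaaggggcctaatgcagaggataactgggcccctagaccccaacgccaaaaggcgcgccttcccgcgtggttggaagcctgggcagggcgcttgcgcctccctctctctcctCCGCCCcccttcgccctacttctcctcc
Efemp2, chr19:5473696-5473945, plus strand: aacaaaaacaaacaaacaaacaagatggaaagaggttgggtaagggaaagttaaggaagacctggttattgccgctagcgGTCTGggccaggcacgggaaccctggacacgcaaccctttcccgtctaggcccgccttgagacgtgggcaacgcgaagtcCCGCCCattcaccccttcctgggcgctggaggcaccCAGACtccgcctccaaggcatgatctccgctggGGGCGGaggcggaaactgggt

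All 3 windows held the GGGCGG letters, with 2 matches for Fbln5, 1 for Efemp1 and 2 for Efemp2, and these letters were present in 32.7% of the 32851 promoter windows of 250 bases. The Efemp1 window alone of the 3 held a match to the TGANTCA letters, as TGAATCA, and such matches were found in 6.75% of all windows. The middle base was not restricted in this search, so the match is to loose letters and is not a call of an AP-1 site. The Fbln5 window alone of the 3 held a CCAAT box, found in 33.8%, and the Efemp2 window alone held the CAGAC letters, with 2 matches, found in 42.2% of all windows. None of the 3 held the TATAAA letters, present in 12.4% of all windows, or the GGAATG letters, present in 12.6%. RefSeq also has 1 further entry for Fbln5 and 2 for Efemp2, which lie inside the annotated genes and are not shown. The further window of Fbln5 held 2 CAGAC matches and none of the other motifs, and each of those of Efemp2 held 5 GGGCGG matches and no CAGAC, so the contrasts above hold for the printed windows alone. These matches describe the letters in the windows, and no binding was measured.

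Levels are given as CPM, the reads of a gene scaled by all reads counted on genes in a library. The libraries held 7178712 to 39888099 such reads, and the fewest were in shLacZ at d4 and at d10 (8261330). A count of 3 reads, taken as the floor, was worth 0.0752 to 0.418 CPM. Dis3l2, the targeted gene, stood in shDis3l2 at 13.7% of its shLacZ level in ESCs (95% interval 11.1 to 16.7%) and at 28.2%, 32.1% and 55.2% on the next 3 days sampled. It stood at 97.1% at d8 (83.7 to 112.7%), 94.99% at d10 (78.8 to 115%) and 75.5% at d12. At d8 and d10, where most of the differences below were large, a lower Dis3l2 level was therefore not detectable in the libraries labelled shDis3l2.

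Eln, Fbn1, Fbn2, Fbln5 and Mfap4 were each more than 3-fold higher in the library labelled shDis3l2 than in its shLacZ counterpart at d8, d10 and d12, while before d6 none of these 5 genes was 3-fold apart. The same held for Efemp2 at d8 and d10 and for Efemp1 at d10 and d12. Fbln1 differed by less than 3-fold, the excess of Fbln2 was greatest at d6 and d8, and Mfap5 did not show a higher level. The criterion for a call on a single day was a fold of 3 or more with 1 CPM or more in either library of that day. Folds carry exact 95% intervals of the read ratio. These cover counting error alone and not variation between cultures, and they are too narrow where reads are PCR copies of the same molecule.

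**Figure D1:**
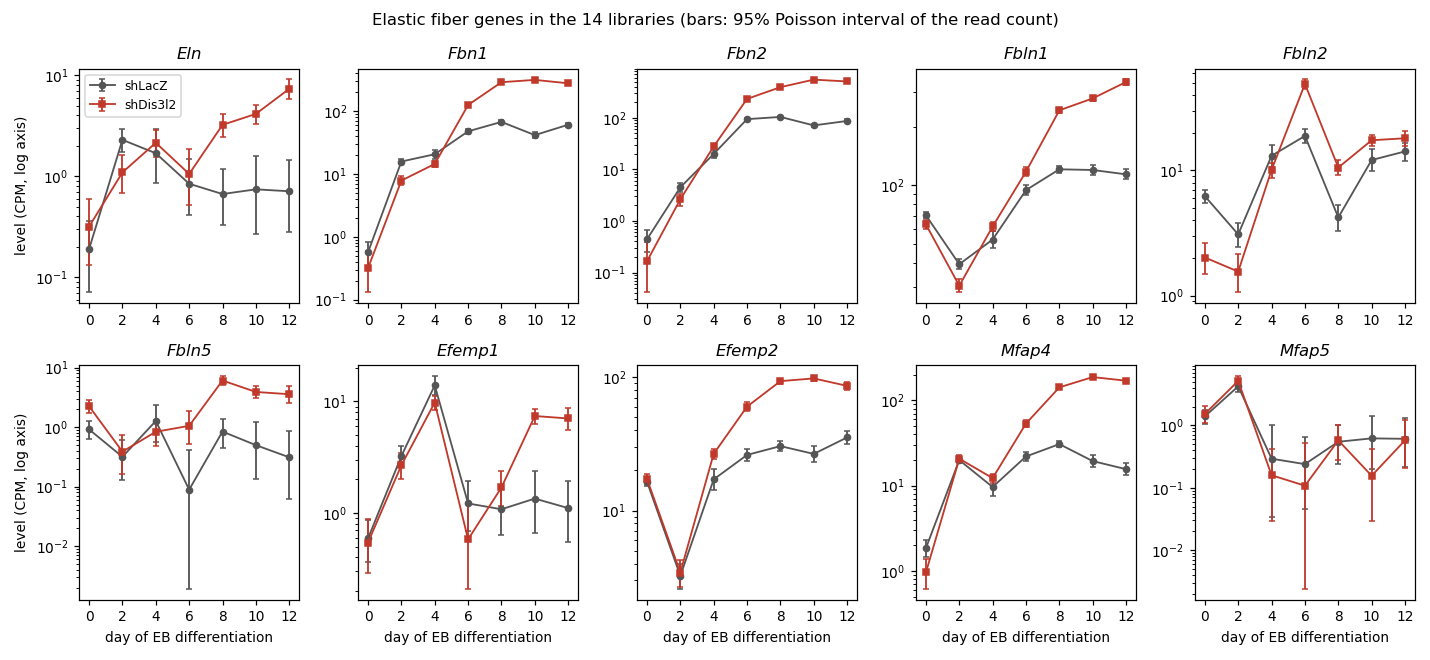
Level of each elastic fiber gene in CPM (log axis, a separate scale for each gene) against the day of EB differentiation, with shLacZ in grey circles and shDis3l2 in red squares, 1 library per point and the 95% Poisson interval of its read count as the bar. Up to d4 the order of the lines varies between genes and days, with Eln and Fbn1 at 0.476-fold and 0.498-fold in shDis3l2 at d2, and from d8 on the red points lie above the grey ones in every panel but that of Mfap5.

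Elastin was low in every library. In shLacZ, Eln (ENSMUSG00000029675, chr5:134702593-134747323 of GRCm38) stood at 0.189, 2.29, 1.69, 0.841, 0.665, 0.740 and 0.708 CPM from d0 to d12. In shDis3l2 its levels were 0.316, 1.09, 2.14, 1.05, 3.22, 4.13 and 7.32 CPM on the same days. The control line thus had its highest level at d2 and the knockdown line at d12, and the intervals of the lines did not overlap at d8, d10 or d12. The shDis3l2 level was 0.476-fold that of shLacZ at d2 (0.279 to 0.776), and 4.84-fold (2.57 to 10.4) at d8, 5.59-fold (2.50 to 15.9) at d10, then 10.3-fold (4.87 to 27.0) at d12. The counts behind the shLacZ values of these last days were 11, 6 and 7 reads, against 63, 87 and 78 in shDis3l2, and this width of the intervals limits how closely the folds can be read.

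The fibrillins, which form the microfibrils, carried the greatest change over time. Fbn1 (ENSMUSG00000027204, chr2:125300594-125507993) rested on 22 reads at d0 in shLacZ and 8 in shDis3l2. Its levels from d0 to d12 were 0.565, 15.7, 20.5, 47.4, 67.0, 41.3 and 60.4 CPM in shLacZ. The shDis3l2 libraries held 0.316, 7.82, 14.4, 124.4, 286.6, 311.9 and 275.2 CPM. In both lines each level up to d8 was above the one before, but the order of the lines turned between d4 and d6. The fold was 0.498 (0.413 to 0.597) at d2 and 0.701 (0.573 to 0.860) at d4, and 2.62 (2.38 to 2.89) at d6, 4.28 (4.01 to 4.57) at d8, 7.55 (6.78 to 8.45) at d10, then 4.56 (4.17 to 4.98) at d12.

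Fbn2 (ENSMUSG00000024598), the fibrillin best known from embryonic tissue, followed a like course. Its shLacZ levels were 0.440, 4.49, 19.9, 94.3, 104.2, 71.3 and 87.1 CPM from d0 to d12. Its shDis3l2 levels were 0.165, 2.63, 27.9, 232.9, 393.8, 551.0 and 507.9 CPM. The fold was 0.586 (0.418 to 0.811) at d2, 1.40 (1.16 to 1.69) at d4, 2.47 (2.31 to 2.65) at d6, 3.78 (3.59 to 3.98) at d8, 7.73 (7.11 to 8.41) at d10, then 5.83 (5.43 to 6.27) at d12. For both fibrillins the excess was thus greatest at d10, a day on which the shLacZ level of each was lower than at d8 and d12.

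The fibrillins changed places over time. Per kilobase of exon, the Fbn2 level was 0.330 of that of Fbn1 in shLacZ at d2 (0.267 to 0.406) and 0.388 in shDis3l2 (0.281 to 0.528). At d6 it was 2.30 times the Fbn1 level in shLacZ (2.09 to 2.54) and 2.17 times in shDis3l2 (2.03 to 2.32). At d4 the lines stood apart, with a ratio of 1.13 in shLacZ (0.888 to 1.43) and 2.24 in shDis3l2 (1.95 to 2.59). From d8 to d12 the ratio lay between 1.67 and 2.00 in shLacZ and between 1.59 and 2.14 in shDis3l2, while their levels differed several-fold between the lines.

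Fbln1 and Fbln2 encode the larger fibulins, which bind many matrix proteins including fibrillin, fibronectin and elastin. Fbln1 (ENSMUSG00000006369, chr15:85205949-85286535) was the one member already abundant in undifferentiated ESCs. The control line held 70.3, 39.5, 52.8, 94.6, 121.0, 120.0 and 114.0 CPM from d0 to d12. The knockdown line held 63.2, 30.6, 61.6, 117.7, 242.7, 279.3 and 339.0 CPM. Both lines had their lowest level at d2. The fold stayed under 3 on every day, at 1.24 (1.15 to 1.35) at d6, 2.01 (1.90 to 2.11) at d8, 2.33 (2.18 to 2.49) at d10, then 2.97 (2.78 to 3.18) at d12, and with the library totals used here it was 0.898 (0.845 to 0.954) at d0, a value that moved above 1 under TMM and under DESeq2 scaling.

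Fbln2 (ENSMUSG00000064080, chr6:91212455-91272540) did not share the late course. From shLacZ came levels of 6.23, 3.08, 13.1, 18.9, 4.22, 12.1 and 14.2 CPM from d0 to d12. From shDis3l2 came levels of 2.02, 1.56, 10.1, 49.2, 10.6, 17.4 and 18.1 CPM. Each line had its highest level at d6 and a level several-fold lower at d8. The fold went from 0.324 (0.235 to 0.435) at d0 and 0.505 (0.325 to 0.762) at d2 to 2.61 (2.24 to 3.04) at d6 and 2.50 (1.91 to 3.33) at d8, and on to 1.44 (1.15 to 1.81) at d10, then 1.27 (1.02 to 1.59) at d12.

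Among the short fibulins, Fbln5 (ENSMUSG00000021186, chr12:101746565-101819055) encodes a protein that tethers elastic fibers to cells and is needed for their assembly. In shLacZ it was at 0.916, 0.317, 1.27, 0.0890, 0.842, 0.498 and 0.311 CPM from d0 to d12, values that rest on 1 to 36 reads. In shDis3l2 it was at 2.24, 0.388, 0.835, 1.05, 6.07, 3.90 and 3.57 CPM, on 8 to 119 reads. With library totals Fbln5 was the one member whose interval lay above 1 in ESCs, with a fold of 2.45 (1.604 to 3.85) at d0. The fold was 11.8 (2.01 to 593.7) at d6 on a single read in shLacZ, 7.21 (4.19 to 13.8) at d8, 7.83 (3.02 to 30.1) at d10, then 11.5 (3.80 to 60.6) at d12, where shLacZ held 3 reads.

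Efemp1 (ENSMUSG00000020467, chr11:28853204-28926743), which encodes fibulin-3, showed a second maximum in one line that the other did not show. Levels in shLacZ were 0.591, 3.24, 13.9, 1.22, 1.08, 1.35 and 1.11 CPM from d0 to d12. Levels in shDis3l2 were 0.543, 2.68, 9.77, 0.579, 1.69, 7.40 and 7.04 CPM. Both lines had their highest level at d4 and a far lower one at d6, and at d10 and d12 the shDis3l2 level was again above 7 CPM while that of shLacZ stayed below 2 CPM. The fold was 0.701 (0.549 to 0.900) at d4, 0.476 (0.151 to 1.27) at d6 and 1.57 (0.862 to 2.97) at d8, later 5.50 (3.02 to 11.3) at d10, then 6.37 (3.40 to 13.5) at d12.

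Efemp2 (ENSMUSG00000024909, chr19:5473973-5481853) encodes fibulin-4, which helps lysyl oxidase reach tropoelastin. The levels of shLacZ were 16.5, 3.24, 17.2, 26.2, 30.5, 26.6 and 35.4 CPM from d0 to d12. The levels of shDis3l2 were 17.3, 3.43, 26.7, 60.3, 93.7, 98.3 and 86.4 CPM. No difference between the lines was detectable at d0 (fold 1.05, 0.929 to 1.18) or d2 (1.06, 0.764 to 1.47), and both had their lowest level at d2. The log2 fold of Efemp2 at d0, 0.07 with library totals, moved to 0.26 under TMM and to 0.46 under DESeq2 scaling, as the median of all genes moved with it. The fold was then 1.56 (1.28 to 1.91) at d4 and 2.31 (2.02 to 2.64) at d6. It reached 3.08 (2.79 to 3.40) at d8 and 3.69 (3.21 to 4.26) at d10 and was 2.44 (2.16 to 2.76) at d12.

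Per kilobase of exon the short fibulins were far from equal. Efemp2 stood at 22.0 times the level of Efemp1 in shLacZ at d0 (14.5 to 35.0) and at 25.2 times in shDis3l2 (14.9 to 46.4). At d2 the ratio was 0.769 (0.563 to 1.05) and 0.985 (0.687 to 1.42), so that these genes were level in both lines while Efemp2 was at its lowest. At d4 the ratio was 0.946 (0.721 to 1.245) in shLacZ and 2.10 (1.79 to 2.48) in shDis3l2. At d6 it was 16.7 (10.2 to 29.6) in shLacZ and 82.05 (37.5 to 224.4) in shDis3l2, on 6 reads of Efemp1 in the latter. The order of the lines turned by d12, at 25.0 (13.8 to 50.5) in shLacZ and 9.46 (7.47 to 12.1) in shDis3l2. At d4, d6 and d12 the intervals did not overlap. At d8 the ratio was 22.0 (13.8 to 37.4) and 42.9 (30.5 to 62.6), and at d10 it was 15.4 (8.43 to 31.3) and 10.2 (8.69 to 12.1), with intervals that overlapped.

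Mfap4 and Mfap5 encode unrelated proteins that associate with microfibrils, and they moved apart. Mfap4 (ENSMUSG00000042436, chr11:61485431-61488900), whose product binds tropoelastin and fibrillin, was at 1.84, 19.9, 9.63, 22.0, 30.7, 19.4 and 15.6 CPM in shLacZ from d0 to d12. For shDis3l2 the values were 0.958, 20.7, 12.2, 53.5, 142.0, 187.5 and 169.9 CPM. Each line had an early maximum at d2, and after d4 shDis3l2 had its highest level at d10 and shLacZ at d8. The fold was 0.520 (0.314 to 0.823) at d0, 1.04 (0.913 to 1.18) at d2, 2.43 (2.11 to 2.81) at d6, 4.63 (4.22 to 5.10) at d8, 9.67 (8.26 to 11.4) at d10, then 10.9 (9.26 to 12.9) at d12.

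Mapk7 lies across Mfap4 on the other strand, and the counting is not stated to use strand. The Mapk7 level was 1.35-fold (1.23 to 1.49) in shDis3l2 at d8, 1.08-fold (0.957 to 1.22) at d10, then 1.23-fold (1.10 to 1.38) at d12, far from the folds of Mfap4. The genes annotated across Eln and Fbn1 on the other strand, Gm30003 and Gm9913, held 0 and 6 reads over the 14 libraries.

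Mfap5 (ENSMUSG00000030116, chr6:122505845-122529290), which encodes the microfibril protein MAGP-2, belonged to the first days. The shLacZ libraries held 1.39, 4.22, 0.293, 0.239, 0.546, 0.619 and 0.609 CPM from d0 to d12. The shDis3l2 libraries had 1.53, 5.15, 0.159, 0.108, 0.574, 0.156 and 0.576 CPM. The highest level was at d2 in both lines, with 111 and 110 reads, and no library after it held more than 11 reads. The fold was 1.10 (0.710 to 1.68) at d0, 1.22 (0.930 to 1.61) at d2, 1.05 (0.396 to 2.87) at d8, 0.252 (0.0365 to 1.21) at d10, then 0.946 (0.252 to 3.53) at d12, and no difference was detectable at this depth.

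**Figure D2:**
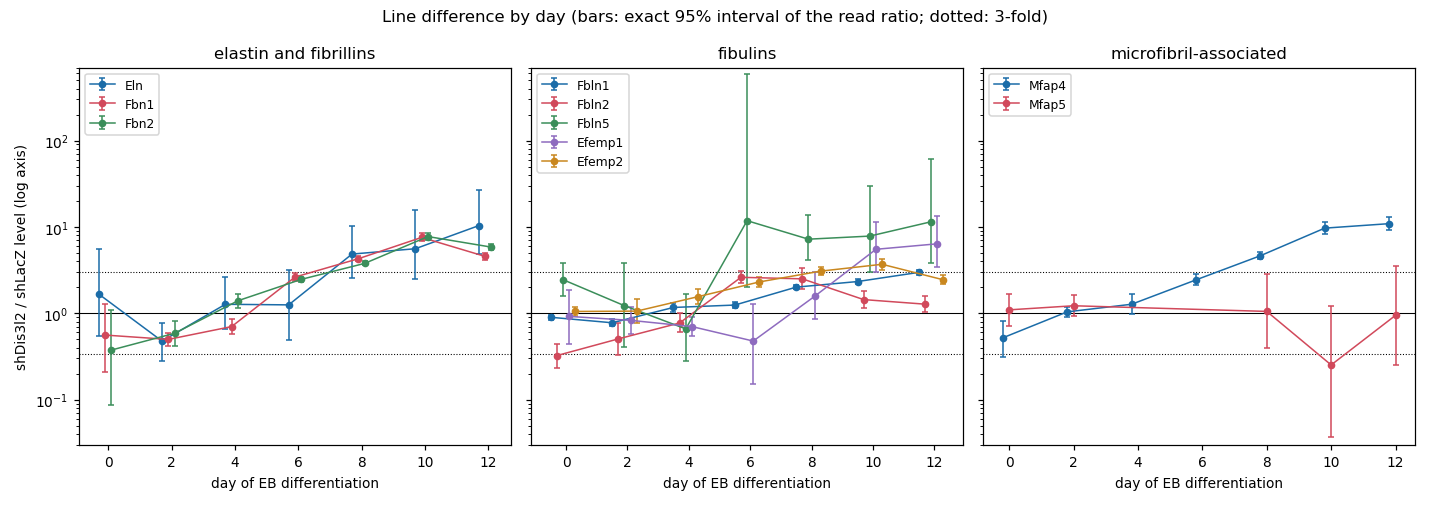
Level in shDis3l2 over that in shLacZ (log axis) for each elastic fiber gene by day of EB differentiation, in panels for elastin and fibrillins, fibulins and microfibril-associated genes, with points set slightly apart on the day axis and the exact 95% interval of the read ratio as bars. Dotted lines mark 3-fold in either direction, and Mfap5 has no point at d4 and d6, where both libraries were at or under 3 reads.

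By the criterion of 3-fold, 0 elastic fiber genes were higher at d0, d2 and d4, where 0.584%, 0.114% and 0.361% of all compared genes were, and Fbln2 alone was lower at d0, beside 2.25% of all genes. At d2 and d4 0 members were lower, beside 0.129% and 1.68%. At d6 Fbln5 alone was higher, beside 2.7% of all genes. Of the 9 genes that could be compared from d8 on, which leaves out Mfap5 as below 1 CPM in both libraries, 6 were higher at d8, 7 at d10 and 6 at d12, beside 5.47%, 8.68% and 8.07% of all genes. None of the 9 was lower from d6 to d12, where 4.23%, 3.71%, 3.12% and 1.5% of all genes were. Because a gene low in shLacZ could enter through its shDis3l2 level alone, as Eln and Fbln5 did from d6 on, these counts describe the compared genes and not all members.

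The median log2 fold of the compared members over d6, d8, d10 and d12 was 1.28, 1.92, 2.48 and 2.54, beside 0.00, 0.03, 0.01 and 0.05 over all compared protein-coding genes. Before, it was -0.04 at d0, -0.37 at d2 and 0.22 at d4, beside -0.32, -0.07 and -0.01. Eln and Fbln5 from d6 on, and Fbln5 at d0, were below 1 CPM in shLacZ and entered through their shDis3l2 level alone. The medians thus describe the compared genes and not all members. At d0 the median of all genes moved to -0.12 under TMM and to 0.08 under DESeq2 scaling, so the folds of d0 are read relative to it. The call of Fbln2 as lower at d0 was not reached with either of these scalings or with protein-coding totals. In whole EBs, a higher share of cells that express a gene and more RNA per cell cannot be told apart.

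An edgeR quasi-likelihood fit over d6, d8, d10 and d12 with day as a block, in which the days of 1 culture series stand in for replicates, tested 9 of the 10 genes, with Mfap5 removed by the filter on low counts. At a Benjamini-Hochberg adjusted p under 0.05, 8 of the 9 were higher in shDis3l2 and 0 lower, beside 19.6% and 18.7% of the 17164 genes tested. The change was greatest for Fbln5, with a log2 fold change of 3.10 (standard error 0.28, adjusted p = 0.000664), and for Mfap4, at 2.53 (0.35, 0.00221). That of Fbln5 rests on 1, 14, 4 and 3 reads in shLacZ on d6, d8, d10 and d12. Eln was at 2.19 (0.45, adjusted p = 0.00984 by edgeR), Fbn2 at 2.17 (0.25, 0.00134) and Fbn1 at 2.13 (0.22, 0.000904). Efemp2 at 1.49 (0.13, adjusted p = 0.000557), Fbln1 at 1.02 (0.18, 0.00559) and Fbln2 at 0.89 (0.20, 0.0145) were smaller. Efemp1, whose difference lay in d10 and d12, was at 1.38 (0.57) and did not pass (adjusted p = 0.0973, 0.0101 to 0.374 over the alternatives), while it did without d6, at 1.92 (adjusted p = 0.0101), and without the filter on low counts, at 1.39 (adjusted p = 0.0167).

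The calls of Eln and Fbln2 were lost when single days were left out. Without d8 the edgeR adjusted p of Eln was 0.0583 and without d10 it was 0.0584, with log2 fold changes of 2.15 and 2.09. That of Fbln2 was 0.0719 without d8, with a log2 fold change of 0.76. Over all genes the number higher went from 3365 to 1784 without d8 and to 1695 without d10. Over all alternatives the adjusted p of edgeR or DESeq2 lay between 0.000102 and 0.0584 for Eln and between 0.000442 and 0.0719 for Fbln2. The other 6 calls held with each of the 4 days left out, with library totals in place of TMM, without the filter on low counts and with DESeq2.

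Whether the line difference of d6-d12 departed from that of d0-d4 was tested in the same way over all 14 libraries. It was toward higher levels in shDis3l2 for 7 of the 10 genes and toward lower levels for 0, beside 4.85% and 5.24% of the 20050 genes tested by edgeR. The log2 change was 2.80 for Fbn1 (standard error 0.33, adjusted p = 0.00301), 2.46 for Mfap4 (0.48, 0.0138), 2.36 for Fbln5 (0.61, 0.0351) and 2.21 for Fbn2 (0.45, 0.0154). It was 1.71 for Fbln2 (0.36, adjusted p = 0.0163 by edgeR), 1.05 for Efemp2 (0.21, 0.0148) and 0.96 for Fbln1 (0.25, 0.0382). Eln at 2.24 (0.71, adjusted p = 0.0703), Efemp1 at 1.58 (0.68, 0.162) and Mfap5 at -0.89 (0.60, 0.369) did not pass, though Eln and Efemp1 did without d6 and without the filter on low counts. Without d2 the count was 1, that of Fbn1 (edgeR adjusted p = 0.0277, the highest over its alternatives), without d8 it was 3 and without d6 it was 9. The count over all genes moved too, from 972 higher to 315 without d2, 431 without d8 and 1169 without d6. The log2 changes moved less: without d2 that of Mfap4 was 2.56, that of Fbln5 2.32, that of Fbn2 1.88 and that of Fbln2 1.72.

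Within the lines, from d0 to d12, Fbn2 went up 197.9-fold in shLacZ (126.9 to 352.3) and 3080-fold in shDis3l2 (1312 to 12340), the latter from 4 reads at d0. Fbn1 went up 106.8-fold (71.7 to 176.1) and 871.0-fold (461.7 to 2112). Mfap4 went up 8.45-fold (6.41 to 11.4) in shLacZ and 177.3-fold (121.5 to 278.7) in shDis3l2. Eln was 3.74-fold (1.18 to 13.2) and 23.2-fold (11.7 to 58.0) of its d0 level, and Efemp1 1.87-fold (0.833 to 4.04) and 12.97-fold (7.45 to 25.5).

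Fbln1 was 1.62-fold (1.51 to 1.74) of its d0 level in shLacZ and 5.37-fold (5.06 to 5.69) in shDis3l2, Efemp2 2.15-fold (1.88 to 2.45) and 4.99-fold (4.46 to 5.595), and Fbln2 2.28-fold (1.84 to 2.81) and 8.97-fold (6.63 to 12.5). Mfap5 was 0.437-fold (0.152 to 1.001) and 0.378-fold (0.129 to 0.883). Fbln5 was 0.340-fold (0.0650 to 1.04) in shLacZ and 1.59-fold (1.03 to 2.44) in shDis3l2, and the latter turned to below 1 under TMM and under DESeq2 scaling. All these folds over d0 use library totals, and for every gene in both lines the log2 fold was lower under TMM and DESeq2 scaling. That of Fbln1 went from 0.70 to 0.10 and 0.19 in shLacZ, and from 2.42 to 1.54 and 1.45 in shDis3l2. That of Efemp2 in shDis3l2 went from 2.32 to 1.44 and 1.34. The intervals do not cover this.

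Per kilobase of exon (RPKM, CPM divided by exon length), the levels of the members could be set in order within a library. In ESCs Fbln1 led with 16.1 RPKM in shLacZ and 14.5 in shDis3l2, which was 63.8% and 63.0% of the sum over the 10 genes, and Efemp2 followed with 6.24 and 6.54 RPKM. At d12 in shLacZ the order was Fbln1 (26.1 RPKM), Efemp2 (13.4), Fbn2 (8.31), Mfap4 (8.11), Fbn1 (4.98), Fbln2 (2.23), Efemp1 (0.542), Mfap5 (0.170), Eln (0.0874) and Fbln5 (0.0534). Fbn2 and Mfap4 did not differ beyond counting error, nor did Mfap5 and Eln or Eln and Fbln5.

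At d12 in shDis3l2 the order was Mfap4 (88.4 RPKM), Fbln1 (77.6), Fbn2 (48.5), Efemp2 (32.6), Fbn1 (22.7), Efemp1 (3.46), Fbln2 (2.84), Eln (0.904), Fbln5 (0.613) and Mfap5 (0.160). Efemp1 and Fbln2 did not differ beyond counting error, nor did Eln and Fbln5. Mfap4 thus came first in place of Fbln1, with 31.8% of the summed level against 12.7% in shLacZ. The summed level of the 10 genes was 25.2 and 23.0 RPKM in ESCs of shLacZ and shDis3l2 and 64.0 and 277.7 RPKM at d12. Elastin remained a minor part, with Fbn1 at 58.1 times its level per kilobase in shLacZ at d12 (28.0 to 145.1) and 25.2 times in shDis3l2 (20.1 to 31.9).

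**Figure D3:**
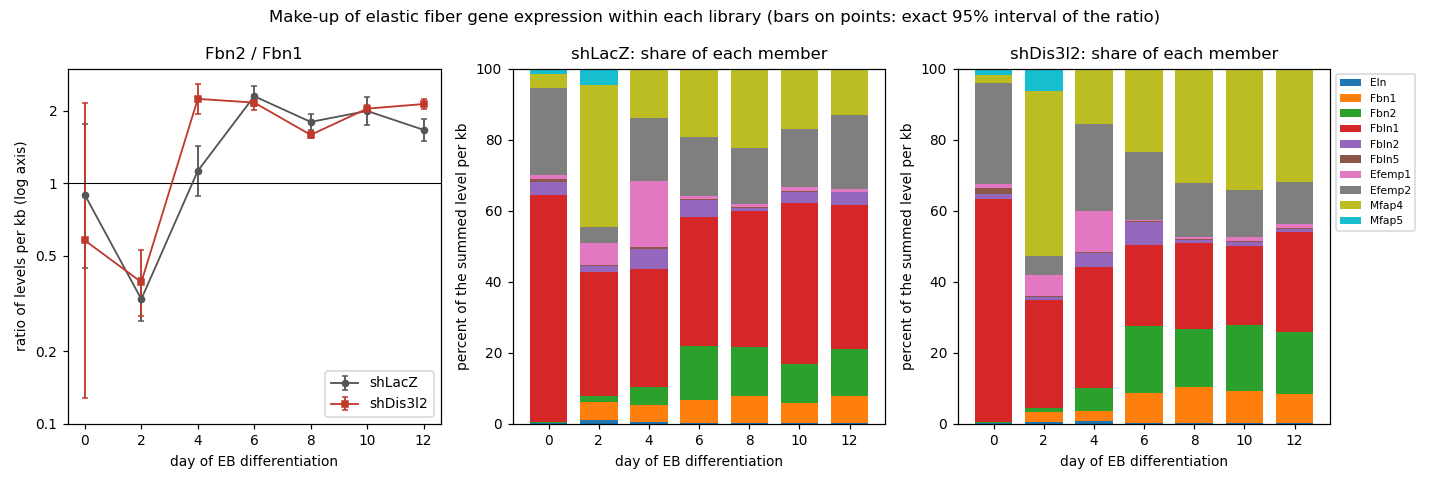
Left, ratio of the Fbn2 to the Fbn1 level per kilobase (log axis) by day in shLacZ and shDis3l2, with exact 95% intervals as bars. Middle and right, share of each gene in the summed level per kilobase of the 10 genes in each library, in percent, where Fbln1 makes up 63.8% and 63.0% at d0 and Mfap4 31.8% in shDis3l2 at d12 beside 12.7% in shLacZ.

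Over the 14 libraries, Fbn1 and Fbn2 were the most alike of the members (Pearson's r of log2(CPM + 1) = 0.974), before Fbn1 with Mfap4 (0.946) and Fbln1 with Efemp2 (0.927). Mfap5 was negatively correlated with each of the other 9, with r from -0.822 to -0.173. These values describe 14 points that share lines, days and depth. Among 15355 other protein-coding genes, those most like Fbn1 were Ltbp1 (r = 0.994), which encodes an LTBP, Creb3l1 (0.990), a transcription factor of the secretory pathway, and Hp1bp3 (0.988). Those most like Fbn2 were Dchs1 (0.994), a large cadherin, Bmp1 (0.989), the procollagen C-proteinase, and Col4a5 (0.987), a basement membrane collagen.

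For Fbln1 the nearest genes were Akt2 (0.985), Rcn3 (0.976), a calcium-binding protein of the ER, and Glt8d1 (0.974), and for Efemp2 they were Aph1b (0.982), Ift43 (0.967) and Meis2 (0.963), a homeobox gene. Mfap4 was closest to Gpr173 (0.983), Wdr5b (0.979) and Laptm4a (0.977). Looser neighbors were found for Eln, Efemp1, Fbln5 and Fbln2. Eln was nearest to Adamts19 (0.954), Shank1 (0.945) and Slc22a5 (0.938), Efemp1 to Plcxd3 (0.929), Adgrb2 (0.914) and Rnf213 (0.913), Fbln5 to Epb41l1 (0.908), Myl4 (0.899) and Tmem151b (0.892), and Fbln2 to Ryk (0.935), a Wnt receptor, Aacs (0.921) and Smim3 (0.911). Mfap5 was nearest to Pax8 (0.966), Txlnb (0.962) and Cphx3 (0.958).

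The partners of these genes in the fiber were described by lists written with earlier results of these data known. Some calls counted from these lists were lost in at least 1 alternative fit. Among the genes named from them this held for Ltbp3, Ltbp4, Loxl4, Mmp2, Ctss, Timp1 and Timp3. Their highest adjusted p of edgeR or DESeq2 was 0.0760, 0.143, 0.104, 0.114, 0.293, 0.0530 and 0.0885. Of 11 other genes of the microfibril, LTBP, emilin and fibulin families, 6 were higher over d6 to d12 and 0 lower by edgeR at an adjusted p under 0.05, beside 19.6% and 18.7% of all genes tested, with a median log2 fold change of 1.16 beside 0.02 over all genes. Mfap2, which encodes the microfibril protein MAGP-1, was at 7.75 and 37.5 CPM in shLacZ and shDis3l2 at d12, a fold of 4.84 (3.79 to 6.25). Emilin1, found at the interface of elastin and microfibrils, was at 25.9 and 235.5 CPM, a fold of 9.09 (8.01 to 10.4). Ltbp3 was at 6.46 and 68.7 CPM, a fold of 10.6 (8.26 to 13.9), and Ltbp4 at 18.96 and 110.5 CPM, a fold of 5.83 (5.002 to 6.83). The fibulins of this list differed. Hmcn1, which encodes fibulin-6, was higher over d6 to d12, with a log2 fold change of 1.16 (standard error 0.14, adjusted p = 0.00158 by edgeR). Hmcn2 at 0.29 (0.36, edgeR adjusted p = 0.556) and Fbln7 at 0.52 (0.35, 0.272) did not pass.

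The lysyl oxidases and other genes of fiber assembly were higher in 11 of 15 cases and lower in 0 over d6 to d12, against the same 19.6% and 18.7% of all genes, with a median log2 fold change of 1.601. Lox, whose product cross-links elastin and collagen, was at 2.20 and 42.3 CPM in shLacZ and shDis3l2 at d12, a fold of 19.3 (12.7 to 31.3), and Loxl1 was at 2.79 and 34.2 CPM, a fold of 12.3 (8.37 to 18.8). Loxl4 had 3 reads in shLacZ and 44 in shDis3l2 at d12, a fold of 13.3 (4.44 to 69.7). Fkbp10, a chaperone of collagen and tropoelastin in the ER, was at 20.6 and 137.9 CPM, a fold of 6.68 (5.78 to 7.76). Loxl2, another lysyl oxidase, was at 321.3 and 325.4 CPM, a fold of 1.013 (0.965 to 1.06), and it did not pass over d6 to d12 (log2 fold change 0.34, edgeR adjusted p = 0.0836).

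Of 11 TGF-beta ligands, receptors and Smads, 6 were higher and 0 lower over d6 to d12, where 19.6% and 18.7% of all genes were, with a median log2 fold change of 0.35. The one gene of this list called on both d10 and d12 was Tgfb3, a TGF-beta ligand, at 2.39 and 67.4 CPM in shLacZ and shDis3l2 at d12, a fold of 28.2 (18.9 to 44.5). Of 8 integrin subunits that bind fibrillins or fibulins, 6 were higher and 0 lower beside the same shares of all genes, with a median of 0.71. Itga8, the subunit of a receptor that binds the RGD sequence, was at 13.9 and 46.4 CPM at d12, a fold of 3.34 (2.76 to 4.06).

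The genes that degrade elastic fibers and their inhibitors went both ways. Of the 12 proteases and Timps, 11 were tested, of which 7 were higher and 2 lower over d6 to d12 by edgeR, beside 19.6% and 18.7% of all genes, with a median log2 fold change of 1.02. Proteases and Timps together summed in shDis3l2 to 0.536, 0.505, 0.573 and 0.796 times the shLacZ level on d6, d8, d10 and d12. This sum is weighted to the most abundant genes and does not describe the list gene by gene. The median log2 fold of its compared genes was 0.36, 0.68, 1.62 and 1.48 on these days. Mmp9 was at 4.77 and 30.8 CPM at d12, a fold of 6.46 (4.77 to 8.95), Mmp14 at 58.4 and 260.8 CPM, a fold of 4.46 (4.08 to 4.89), and Mmp2 at 88.1 and 312.7 CPM, a fold of 3.55 (3.30 to 3.83). Ctss, which encodes the elastolytic cathepsin S, had 0 reads in shLacZ and 45 in shDis3l2 at d10, at least 5.87-fold higher against 3 reads in shLacZ, and a fold of 9.49 (5.71 to 17.1) at d12. The 2 lower genes were Ctsl, which encodes cathepsin L, with a log2 fold change of -1.23 (standard error 0.10, adjusted p = 0.000557 by edgeR), and Timp3, at -0.49 (0.12, 0.0174). The other inhibitors differed. Timp2 at 1.43 (0.12, edgeR adjusted p = 0.000521) and Timp1 at 0.90 (0.21, 0.0150) were higher, and Timp4 at -1.05 (0.39, 0.0738) did not pass.

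**Figure D4:**
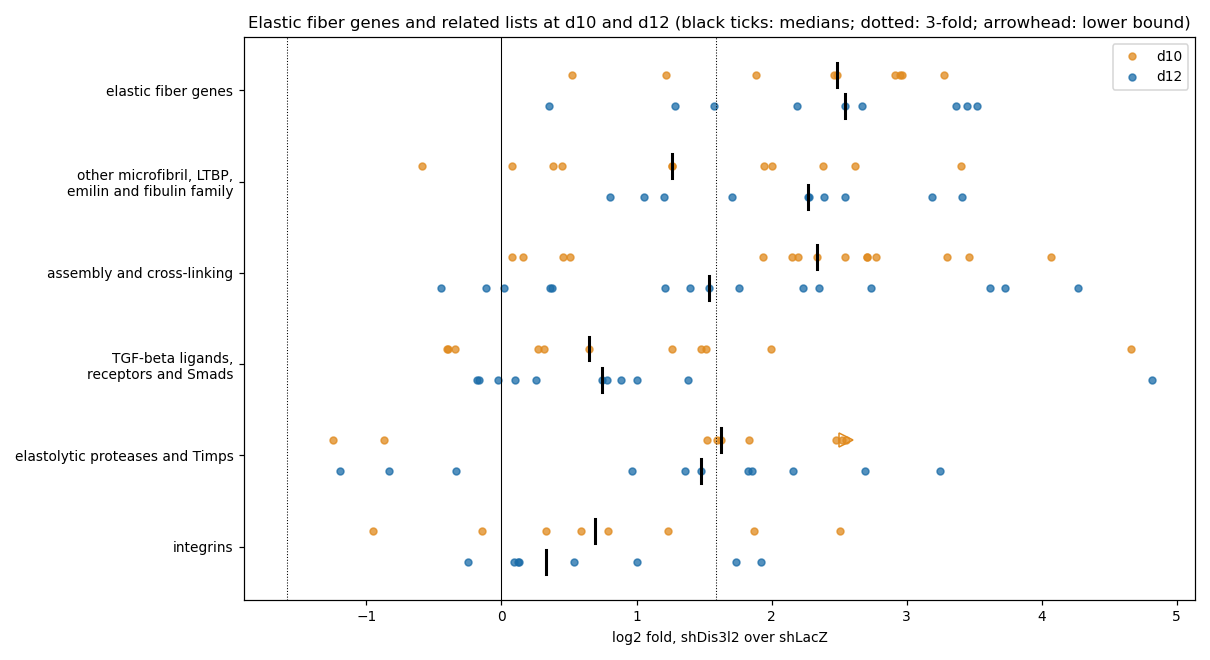
Log2 fold of shDis3l2 over shLacZ at d10 (orange) and d12 (blue) for the elastic fiber genes and 5 lists of related genes, 1 point per gene with at least 1 CPM in 1 of the day's libraries, black ticks at the medians and an arrowhead for Ctss at d10, which is a lower bound. The elastic fiber genes have medians of 2.48 and 2.54, those of the TGF-beta genes are 0.65 and 0.74 and those of the integrins 0.69 and 0.33. Of the elastic fiber genes, Eln and Fbln5 reach 1 CPM in shDis3l2 alone on these days.

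Markers of cell types in the EBs differed between the lines over the same days. Counts of markers called higher or lower are by edgeR over d6 to d12, beside 19.6% and 18.7% of all genes tested. Summed over 8 mesenchyme markers, the level from d6 to d12 ranged from 382.2 to 1694 CPM in shLacZ and from 988.6 to 15380 CPM in shDis3l2, 2.59, 4.88, 7.94 and 11.8 times the shLacZ sum of the same day, and 6 of 8 were higher by edgeR, with Col1a1, Col1a2 and Col3a1 at log2 fold changes of 3.46, 3.68 and 3.03 and Pdgfra at 0.17. Thy1 was at -0.54 and did not pass. The median log2 fold of the 8 markers was 1.35, 1.70, 2.61 and 2.33 on these days. Summed over 5 smooth muscle markers the level ranged from 67.6 to 158.2 CPM in shLacZ and from 474.3 to 2126 CPM in shDis3l2, with 5 of 5 higher and Myh11 and Myocd at or under 3 reads in shLacZ at d10. The 5 visceral endoderm markers summed to 1901 to 3513 CPM in shLacZ and 384.2 to 987.8 CPM in shDis3l2, with 5 of 5 lower.

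Of 4 pluripotency markers, 3 were lower, with sums of 264.0 to 337.4 CPM and 29.9 to 207.8 CPM over d6 to d12, against 2333 and 1505 CPM in the ESCs of d0. For the other lists, as for mesenchyme, the ranges over these days overlapped between the lines, but the sums of single days differed. Of 5 cardiomyocyte markers 4 were tested and 3 were higher by edgeR, with sums of 14.4 to 32.3 CPM in shLacZ and 16.2 to 106.2 CPM in shDis3l2, or 1.12, 3.38, 3.87 and 2.47 times shLacZ from d6 to d12. Nppa of this list was at or under 3 reads in every shLacZ library of these days. Of 5 endothelial markers 2 were higher and 0 lower, with sums of 88.7 to 200.3 and 194.6 to 391.4 CPM and ratios of 1.62, 1.98, 2.74 and 0.971. Of 4 neural markers 1 was higher and 2 were lower, with sums of 33.4 to 81.5 and 65.0 to 177.7 CPM. Of 4 blood markers 1 was higher and 0 lower, with sums of 4.22 to 557.6 and 20.8 to 706.3 CPM. With 19.6% of all genes higher and 18.7% lower, the endothelial, neural and blood counts are not read as results about these cell types. Each of these lists holds 4 or 5 genes. Mesenchyme and smooth muscle produce most elastic fiber proteins in tissue, and the part of these cell type differences in the levels of the elastic fiber genes was not tested.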

How the data were processed

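The deposited whole-read counts per gene were made by the authors with Subread and featureCounts 1.6.3 on GRCm38 (Ensembl 88), with no normalization, and the CPM table deposited beside them by the authors with edgeR equals the count plus 0.25 over the total of its protein-coding genes. Its values served only to find the genes. Columns spelled shm5 were taken as shDis3l2, since a supplementary sheet of the study gives the same values under that name. The members, lists and tests were chosen with earlier results of these data known. CPM was computed from counts with library totals over all genes with 0.25 added to each count in proportion to library size. RPKM used the deposited gene length. A count of 3 reads was the floor, and intervals (95%) were exact Clopper-Pearson for ratios and Poisson for levels. Line differences were fitted with edgeR 4.0.16 (quasi-likelihood, TMM, filterByExpr, day as a block, Benjamini-Hochberg) in R 4.3.3 and with DESeq2 1.42.0 as the alternative, over days that are not biological replicates. Fits and intervals were each tested on simulated data, drawn independently. Such draws do not cover the days of a single culture series standing in for replicates. The rest used Python 3.11.15 with matplotlib 3.10.9, pandas 2.3.3, scipy 1.17.1 and numpy 2.4.6. Genes were named by rule: all members, up to 4 genes per related list called the same way at d10 and d12 with the greatest fold at d12, and the 3 nearest genes of each member by Pearson's r. Fbln7, Hmcn1, Hmcn2, Loxl2, Ctsl, Timp1, Timp2, Timp3, Timp4 and the marker genes were named after their values were seen. The 91 pairs of libraries held 0 identical pairs.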

Additional observations from a re-analysis of the deposited data

Results flagged for a closer look

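For 7 of the 10 genes the difference between the lines at the later days departed from that at d0-d4 in the edgeR test of this change, with adjusted p-values under 0.05, toward higher levels in shDis3l2, beside 4.85% of the 20050 genes tested that were higher and 5.24% that were lower. The log2 change was 2.80 for Fbn1, 2.21 for Fbn2, 0.96 for Fbln1, 1.71 for Fbln2, 2.36 for Fbln5, 1.05 for Efemp2 and 2.46 for Mfap4. Between d6 and d12 the level in shDis3l2 was above that in shLacZ on each of the 4 days for each of these genes. Without d2, 1 of the 7, Fbn1, passed, and without d8, 3 passed, while the genes higher over all went from 972 to 315 and 431. Without d2 the log2 change of Mfap4 was 2.56 and that of Fbln2 1.72.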

How the results depend on the processing

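With 1 library per line and day, and 1 series, days stand in for replicates. The fits pair the lines by day, and no replicate numbers were there to block on. The number of elastic fiber genes at least 3-fold higher was 6, 7 and 6 at d8, d10 and d12, and moved no further than 1.5 times with TMM scaling, DESeq2 size factors, protein-coding totals, no minimum CPM or a fold of at least 2. At d0 it was 1 rather than 0 higher with DESeq2 size factors or a fold of at least 2, and 0 rather than 1 lower with TMM, DESeq2 or protein-coding totals. At d6 it was 0 with TMM or DESeq2 and 6 with a fold of at least 2, which also gave 1 lower at d6 and 2 lower at d2. Without a minimum CPM 1 was lower at d10. Fbln5 from d0 to d12 in shDis3l2 turned to a log2 fold of -0.21 with TMM and -0.30 with DESeq2. With both scalings the log2 fold from d0 to d12 was lower for every elastic fiber gene in both lines. Over d6 to d12, leaving out 1 day gave 1695 to 3440 genes higher and 1641 to 3237 lower of all. For the change of the difference it gave 1 to 9 elastic fiber genes, and 315 to 1169 higher and 209 to 982 lower of all genes, and 1788 were higher without the filter and 415 lower with library totals. Ranks by CPM without length differed from those per kilobase for 13 of 20. The cause was not tested. Depth limits Eln, Fbln5 and Mfap5 in shLacZ most.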
